A study of Mus musculus with 6 samples.

Results

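The 9 genes described here encode the ferritin subunits (Fth1, Ftl1), the transferrin receptor (Tfrc), the iron transporters Slc11a2 and Slc40a1, the iron regulatory proteins (Aco1, Ireb2), the ferritin cargo receptor Ncoa4 and the iron chaperone Pcbp1. They were listed by name out of 55401 genes in the expression table, and the list was picked on the consistently higher Fth1 level in metformin-treated libraries. The metformin contrast of each of these genes is therefore given as a description. The fit over all genes included them, and only the counts it called are given, beside the share of all genes, with nothing read from them. RNA-seq was performed on a cultured mouse line labelled as female germline stem cells (FGSCs), the putative oocyte-forming stem cells of the ovary. Metformin is a biguanide drug used against type 2 diabetes. There were 3 control libraries and 3 libraries from cells given 1 µM metformin for 24 h. All 6 came from 1 cell line of C57BL/6 mice, past passage 20, grown on mitotically inactivated STO cells, a mouse embryonic fibroblast line that serves as feeder. Nothing in the labels says that the replicates were separate cultures, so the spread between libraries may be technical.

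Cells need iron for haem, iron-sulfur clusters and many enzymes, but free ferrous iron drives the formation of damaging radicals. Iron bound to transferrin enters through the transferrin receptor, leaves the endosome through Slc11a2 (DMT1), is stored inside ferritin cages of heavy and light chains, and leaves the cell through ferroportin (Slc40a1). When iron is scarce, the iron regulatory proteins bind a hairpin named the iron-responsive element (IRE). A hairpin in the 5′ UTR blocks translation of the ferritin and ferroportin mRNAs, and hairpins in the 3′ UTR protect Tfrc mRNA from decay, so ferritin is classically set at translation and Tfrc at mRNA stability.

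The IREs of the transcripts are shown first, because they are the feature by which this gene group is known to be regulated. The GENCODE M1 transcripts of the mouse genome NCBIM37 were searched on the transcript strand for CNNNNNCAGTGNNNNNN in which all 5 bases before and after the CAGTGN loop pair (G-U pairs allowed). Of the 9 genes, 4 held a match. Coordinates are those of NCBIM37, and capitals mark the loop:
Fth1, 5′ UTR, exon 1 of 4, chr19:10057222-10057250, plus strand: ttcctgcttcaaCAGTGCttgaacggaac
Ftl1, 5′ UTR, exon 1 of 4, chr7:52715149-52715177, minus strand: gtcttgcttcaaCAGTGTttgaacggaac
Slc40a1, 5′ UTR, exon 1 of 8, chr1:45982310-45982338, minus strand: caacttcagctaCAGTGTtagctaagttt
Tfrc, 3′ UTR, exon 19 of 19, chr16:32631305-32631333, plus strand: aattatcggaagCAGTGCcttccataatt
Tfrc, 3′ UTR, exon 19 of 19, chr16:32631684-32631712, plus strand: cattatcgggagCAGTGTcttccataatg
Tfrc, 3′ UTR, exon 19 of 19, chr16:32631749-32631777, plus strand: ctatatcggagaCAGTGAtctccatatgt
Tfrc, 3′ UTR, exon 19 of 19, chr16:32631796-32631824, plus strand: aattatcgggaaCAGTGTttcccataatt

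The Fth1 and Ftl1 elements differed at 3 of the 29 positions shown, and the 5 stem bases on each side of the loop were the same in both. Tfrc was the one listed gene with several matches, 4 in its last exon. The pattern was found in the 5′ UTR of 33 of 19945 genes (0.165%) and in the 3′ UTR of 125 of 20007 genes (0.625%). A match is a match of letters, and the absence of one in Slc11a2, Aco1, Ireb2, Ncoa4 and Pcbp1 says only that these letters were not in the transcripts searched.

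Values are FPKM (fragment counts scaled to exon length and to the mapped fragments of the library), so that levels of different genes can be set side by side. Between 17681 and 17917 genes were above 0 in a library. The steps between low values gave an estimated depth of 13400000 to 14040000 fragments per library. The labelled identity of the cells was checked against markers: Pou5f1, Dppa3 and Dazl were at 0 in every library, and 0 of 6 germ cell markers had a mean of 1 FPKM or more. Of 10 blood cell markers, 9 did, among them Kit, Gata1, Gata2, Spi1 and Ptprc. The fibroblast markers of the feeder layer summed to 0.42 to 0.68 FPKM in control and 0.48 to 0.59 FPKM in metformin libraries, with Lum at 0.

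The ferritin subunits were the most abundant transcripts of the group, and the heavy chain was higher in every metformin library. Fth1 (ENSMUSG00000024661, GRCm38 chr19:9980598-9985098, plus strand) encodes the heavy chain, which oxidizes ferrous iron before it is stored. Its level was 786.32, 772.25 and 777.49 FPKM in the 3 control libraries and 848.99, 849.58 and 842.60 FPKM in the 3 metformin libraries. The groups did not overlap, and the gap between them was wider than the range within either group. The means were 779 ± 7.11 FPKM in control and 847 ± 3.87 FPKM in metformin libraries (SD, n = 3 each), a ratio of 1.09. On the log2(FPKM + 1) scale, the metformin-minus-control difference was 0.12 (SE 0.015), and 856 of 10661 tested genes had a larger one. Every SE here and below is the moderated SE of the fit over all genes. It draws a gene's spread toward that of genes of like level, and so differs from an SE computed from the gene's own SDs. Fth1 was chosen on the metformin contrast. Its within-group SD on the log2 scale was 0.010, against a median of 0.060 over all tested genes. Of the tested genes, 0.478% had a smaller SD. Since the list was picked on a consistent difference in Fth1, nothing is read from this rank. The median also covers genes of far lower level, for which counting error is larger. By the estimated depth and the GENCODE M1 exon length, each library held 9125 to 10323 Fth1 fragments, for which counting alone gives an SD of about 1.01% of the mean, and the observed SDs were 0.913% in control and 0.457% in metformin libraries.

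Ftl1 (ENSMUSG00000050708, GRCm38 chr7:45457944-45459884, minus strand) encodes the light chain, which helps to form the iron core. It was at 1191.43, 1202.82 and 1221.36 FPKM in control and at 1203.07, 1226.02 and 1274.52 FPKM in metformin libraries. These ranges overlapped, since 2 control libraries lay below every metformin library and the third lay between the first 2 metformin libraries. The means were 1205 ± 15.1 and 1235 ± 36.5 FPKM (SD, n = 3 each), and the log2 difference of 0.034 (SE 0.024) turned to -0.019 under quantile normalization. It was 0.011 without metformin replicate 3 and 0.053 without metformin replicate 1. The ratio of Fth1 to Ftl1 within a library was 0.660, 0.642 and 0.637 in control and 0.706, 0.693 and 0.661 in metformin libraries. The ratio was thus higher in each metformin library, although the highest control and the lowest metformin value almost touched. Together, the subunits made up 0.618% to 0.627% of summed FPKM in control and 0.640% to 0.663% in metformin libraries, with Ftl1 above Fth1 in every library.

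Ferritin has many processed copies in the mouse genome, and reads that fit a copy as well as the gene can be split by the aligner. Among the copies in the table, Ftl1-ps1 was at 39.52 to 42.57 FPKM, 40.08, 39.52 and 42.57 in control and 42.47, 42.36 and 40.22 in metformin libraries. Ftl2-ps was at 0.26 to 0.81 FPKM, Fth-ps2 at 0 to 0.84 FPKM and Ftl1-ps2 at 0 to 0.27 FPKM. Fth-ps3, the mitochondrial ferritin gene Ftmt and every listed Fthl17 gene or pseudogene were at 0. The values of Fth1 and Ftl1 carry this uncertainty. An unnamed gene (ENSMUSG00000110350) also overlaps Ftl1 on the opposite strand, at a mean of 24.8 FPKM, and use of strand in counting is not given in the sources used here.

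**Figure D1:**
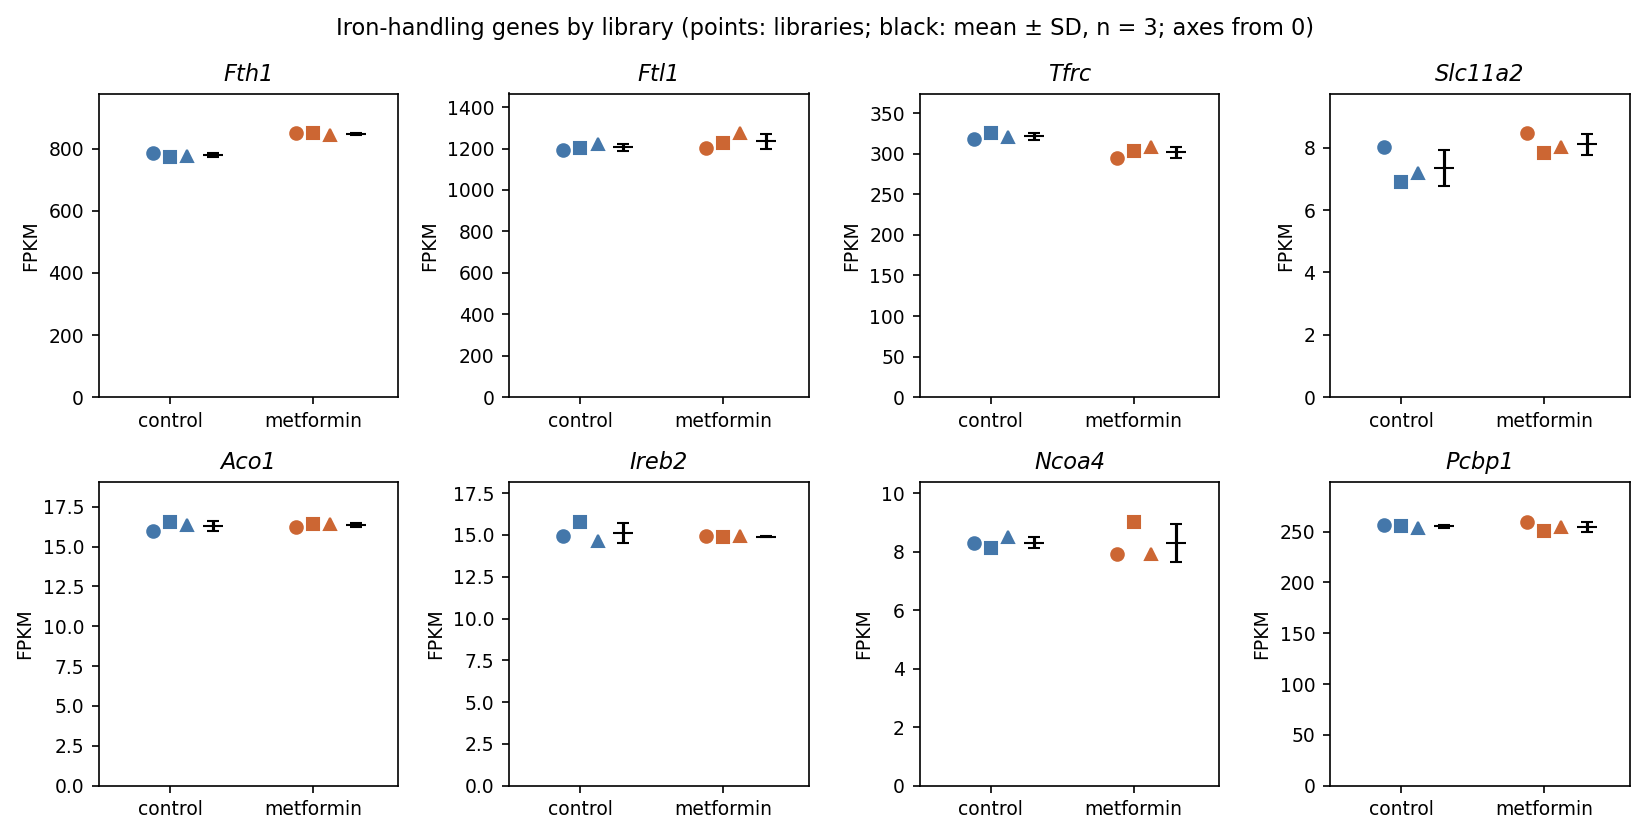
FPKM of 8 of the 9 genes in each library (blue, control; orange, metformin; circle, square and triangle for replicates 1, 2 and 3), with the mean ± SD (n = 3) in black and every axis starting at 0. The metformin libraries lie above all control libraries for Fth1 (842.60 to 849.58 against 772.25 to 786.32 FPKM) and below them for Tfrc (294.30 to 307.99 against 317.64 to 325.47 FPKM), and the groups overlap for the other 6.

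For iron uptake, the receptor transcript was lower in every metformin library. Tfrc (ENSMUSG00000022797, GRCm38 chr16:32608920-32632794, plus strand) encodes transferrin receptor 1, which takes iron-loaded transferrin into the endosome. It was at 317.64, 325.47 and 320.81 FPKM in control and at 294.30, 302.88 and 307.99 FPKM in metformin libraries. All 3 metformin libraries lay below all 3 control libraries, with means of 321 ± 3.94 and 302 ± 6.92 FPKM (SD, n = 3 each). The log2 difference was -0.091 (SE 0.022), and 1120 of 10661 tested genes had a lower one. The ratio of Fth1 to Tfrc was 2.48, 2.37 and 2.42 in control and 2.88, 2.81 and 2.74 in metformin libraries, and thus higher in each of the 3 metformin libraries. Ratio and levels alike come from the contrast on which the genes were listed.

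Slc11a2 (ENSMUSG00000023030) moves ferrous iron out of the endosome. It was at 8.01, 6.90 and 7.18 FPKM in control and at 8.47, 7.83 and 8.03 FPKM in metformin libraries. The first control library lay within the metformin range and the other two below it. The log2 difference, 0.13, was close in size to that of Fth1 (0.12) but had a wider SE (0.058 against 0.015). Slc11a2 mRNAs with and without an IRE are known, and a gene-level FPKM does not separate them.

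Slc40a1 (ENSMUSG00000025993) encodes ferroportin, the one known iron exporter of mammalian cells. It was listed at 0 in 4 libraries and at 0.01 FPKM in control replicate 2 and metformin replicate 3. Over its GENCODE M1 exon length, 3 fragments correspond to 0.063 to 0.066 FPKM, so its mRNA was not detectable at this depth in either group. No difference was computed for it.

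The iron sensors did not separate the groups. Aco1 (ENSMUSG00000028405) encodes iron regulatory protein 1, which is a cytosolic aconitase when it holds an iron-sulfur cluster and binds IREs when it has lost it. It was at 15.98, 16.57 and 16.35 FPKM in control and at 16.21, 16.39 and 16.44 FPKM in metformin libraries, with every metformin value inside the control range. Ireb2 (ENSMUSG00000032293) encodes iron regulatory protein 2, which is degraded when iron is plentiful. It was at 14.95, 15.80 and 14.62 FPKM in control and at 14.93, 14.87 and 14.91 FPKM in metformin libraries, again inside the control range. The log2 differences were 0.0040 (SE 0.029) for Aco1 and -0.019 (SE 0.036) for Ireb2. These are mRNA levels, and both proteins are known to be controlled mainly after translation.

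The 2 genes that load and unload ferritin did not separate the groups. Ncoa4 (ENSMUSG00000056234) encodes the receptor that carries ferritin to the lysosome for iron release. It was at 8.30, 8.13 and 8.51 FPKM in control and at 7.93, 9.03 and 7.92 FPKM in metformin libraries. The metformin values lay on both sides of the control range, and the log2 difference was -0.0051 (SE 0.055). Pcbp1 (ENSMUSG00000051695) encodes a chaperone that delivers iron to ferritin and also binds RNA. It was at 256.62, 255.91 and 253.74 FPKM in control and at 259.77, 250.04 and 254.88 FPKM in metformin libraries, with a log2 difference of -0.0031 (SE 0.020) and the control values inside the metformin range.

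In limma's moderated test with Benjamini-Hochberg adjustment over the 10661 genes that averaged 1 FPKM or more, 8 of the 9 genes were tested and 0 had an adjusted p under 0.05, where 0.0281% of all tested genes did. At an unadjusted p under 0.05, 1 was higher, where 6.03% of all tested genes were, and 1 was lower, where 4.81% were. The groups did not overlap, with metformin higher, for 1 of the 8 and for 8.89% of all tested genes, and with metformin lower for 1 of the 8 and for 8.1% of all tested genes. Since the list was picked on this contrast, nothing is read from these counts. The median log2 difference of the 8 genes was 0.00044, beside 0.0041 over all tested genes. In bulk samples, fewer cells of a type and less RNA per cell cannot be told apart. The sums of blood cell and of mast cell markers did not overlap between the groups, whereas those of erythroid and of macrophage markers did. The 10 blood cell markers summed to 721.74 to 729.89 FPKM in control and 752.28 to 764.55 FPKM in metformin libraries, with none of them at 0 in every library. The 8 mast cell markers, of which Cpa3 alone had a mean of 1 FPKM or more and Fcer1a, Tpsb2 and Mrgprx2 were at 0, summed to 357.60 to 387.36 FPKM in control and 331.72 to 349.66 FPKM in metformin libraries. Of the 9 erythroid markers, 7 were matched by symbol. Hbb-bs and Hbb-bt were not matched, so their levels are not known here. Of the 7, Epor alone had a mean of 1 FPKM or more, and Hba-a2 and Slc4a1 were at 0. The 7 summed to 11.74 to 13.56 FPKM in control and 13.11 to 14.31 FPKM in metformin libraries. The 8 macrophage markers, with Adgre1 and Cd68 above 1 FPKM and Marco at 0, summed to 63.14 to 66.85 and 61.48 to 67.09 FPKM. Whether the cultured line itself or other cells gave these marker transcripts was not tested, nor was any part of them in the ferritin and receptor values.

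The order of levels was Ftl1, Fth1, Tfrc, Pcbp1, Aco1, Ireb2, Ncoa4, Slc11a2 and Slc40a1, and it spanned a wide range. The means over 6 libraries were 1220 FPKM for Ftl1, 813 for Fth1, 312 for Tfrc and 255 for Pcbp1, whereas the sensors were at 16.3 FPKM (Aco1) and 15.0 (Ireb2), Ncoa4 at 8.30 and Slc11a2 at 7.74. Ftl1 ranked 18 and Fth1 38 among all 55401 genes by mean FPKM. Neighbours in this order did not overlap over the 6 libraries, except Ncoa4 (7.92 to 9.03 FPKM) and Slc11a2 (6.90 to 8.47 FPKM). Aco1 and Ireb2 were close, with the lowest Aco1 value at 15.98 FPKM and the highest Ireb2 value at 15.80 FPKM, but Aco1 was higher within every library (1.05 to 1.12 times). The order rests on the gene lengths behind the deposited FPKM.

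**Figure D2:**
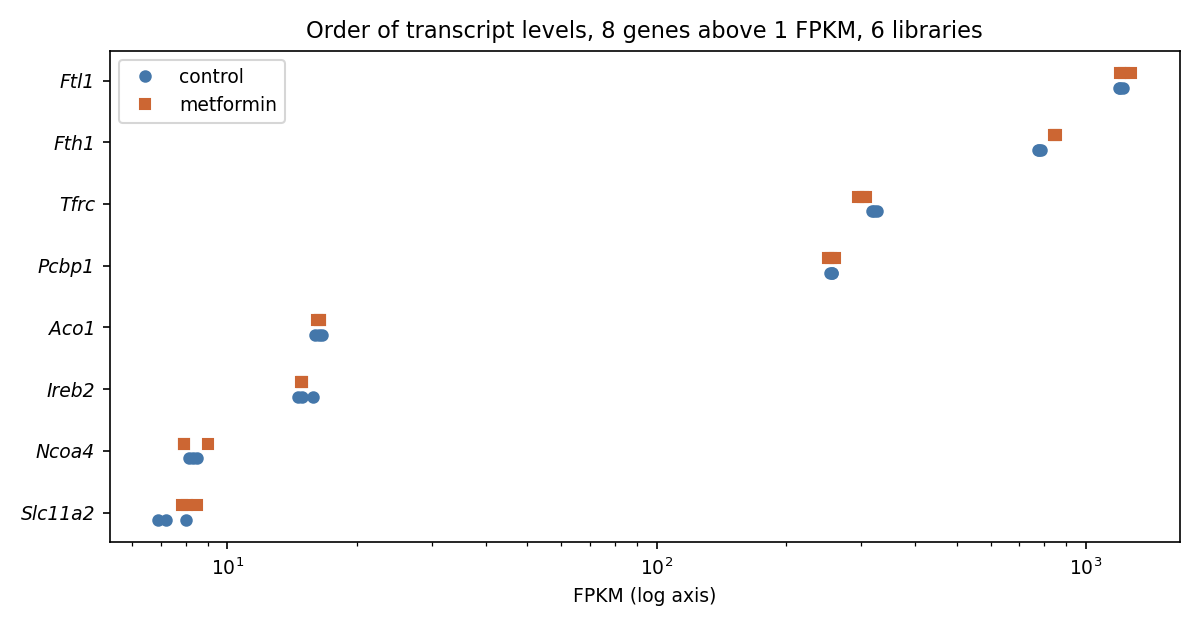
FPKM on a log axis for the 8 genes above 1 FPKM, with a circle for each control library and a square for each metformin library. The ferritin subunits lie highest (1220 and 813 FPKM on average), Tfrc and Pcbp1 follow, and the sensors, Ncoa4 and Slc11a2 lie below 17 FPKM, with Ncoa4 and Slc11a2 overlapping.

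**Figure D3:**
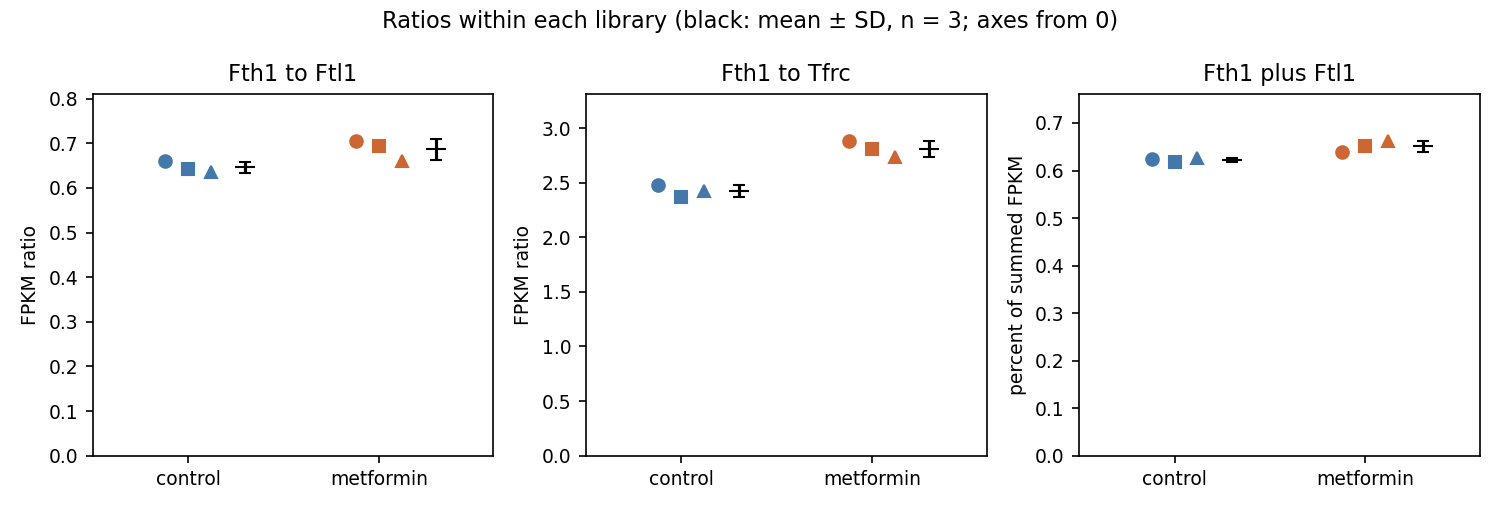
Ratio of Fth1 to Ftl1, ratio of Fth1 to Tfrc, and Fth1 plus Ftl1 as a percent of summed FPKM in each library, with the mean ± SD (n = 3) in black and axes from 0. The Fth1 to Tfrc ratio is 2.37 to 2.48 in control and 2.74 to 2.88 in metformin libraries.

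The rest of the iron pathway was examined in 104 other genes, of which 78 were tested. None had an adjusted p under 0.05 in the limma fit. At an unadjusted p under 0.05, 11 of 78 (14.1%) were higher and 2 (2.56%) lower, beside 6.03% and 4.81% of all tested genes. The first count was 4 without control replicate 1 and 7 without control replicate 2. The second was 1 without control replicate 3 or without metformin replicate 2, and 5 without metformin replicate 3. The median log2 difference was 0.013, beside 0.0041 over all tested genes. These lists were drawn up with results of the same libraries known. The shares of all tested genes are the background for the count of each list below as well. Slc7a11, Hmox1, Alas2 and Epas1 each stand in 2 lists and are counted in both.

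Among the genes of uptake and endosomal reduction, 5 of 14 were tested. At an unadjusted p under 0.05, 2 were higher and 0 lower, beside 6.03% and 4.81% of all tested genes. Snx3, a sorting nexin that returns the transferrin receptor to the cell surface, was at 56.49, 55.55 and 54.51 FPKM in control and 60.76, 58.70 and 57.84 FPKM in metformin libraries, with no overlap (log2 difference 0.089, SE 0.027, limma adjusted p = 0.367). The second, Steap3, the endosomal ferrireductase, was at 13.64, 13.89 and 13.95 FPKM in control and 14.54, 14.60 and 15.35 FPKM in metformin libraries (0.094, SE 0.034, limma adjusted p = 0.397). Mcoln1, a lysosomal cation channel, had the highest difference of this list (0.14, SE 0.070) and the zinc and iron importer Slc39a8 the lowest (-0.034, SE 0.066), both with an unadjusted p above 0.05. Export and systemic control, which includes hepcidin (Hamp) and hephaestin (Heph), could not be compared, since all 9 genes were below 1 FPKM and 3 were at 0 throughout.

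Of the other storage and chaperone genes, 4 of 6 were tested. The 4 differences were above 0 (median 0.072), beside 52.3% of all tested genes. At an unadjusted p under 0.05, 1 was higher and 0 lower, beside 6.03% and 4.81% of all tested genes. Pcbp2, a paralog of Pcbp1 that also passes iron to ferritin, was at 40.56, 40.59 and 41.47 FPKM in control and 43.42, 43.53 and 43.51 FPKM in metformin libraries. Its log2 difference was 0.087 (SE 0.023, limma adjusted p = 0.346), beside -0.0031 for Pcbp1. Bola2 had the highest difference (0.10, SE 0.067) and Glrx3, its partner in cluster transfer, the lowest (0.029, SE 0.036) and the highest level (43.8 FPKM in control). Steap3 and Pcbp2, and below Bola3, Tkt and Acsl4, are outside the rule for named genes and were chosen after their values were seen.

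Of the genes of iron sensing and of iron regulatory protein turnover, 5 of 6 were tested and 0 had an unadjusted p under 0.05. The 5 differences were below 0 (median -0.062), beside 52.3% of all tested genes above 0, and no direction of the list was tested. Fbxl5, the iron-binding ubiquitin ligase subunit that marks iron regulatory proteins for degradation, was at 5.78, 5.88 and 6.16 FPKM in control and 5.41, 5.66 and 5.66 FPKM in metformin libraries (log2 difference -0.077, SE 0.044, limma adjusted p = 0.558). The scaffold Cul1, the most abundant of the list at 96.1 FPKM in control, differed by -0.052 (SE 0.027), and Rbx1 by -0.0024 (SE 0.048).

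Iron-sulfur cluster assembly showed no common direction. In the cytosolic machinery, 9 of 9 genes were tested, 5 differences were above 0 and 4 below, from -0.061 (SE 0.032) for Ciao2a, which was also the most abundant at 133 FPKM in control, to 0.12 (SE 0.046) for the scaffold Nubp1, the 1 gene with an unadjusted p under 0.05. In the mitochondrial list, 17 of 18 were tested, with 10 differences above 0 and 7 below. At an unadjusted p under 0.05, 2 genes were higher (Lyrm4, Bola3) and 1 lower, beside 6.03% and 4.81% of all tested genes. Lyrm4, a small partner of the cysteine desulfurase Nfs1, was at 3.36, 3.82 and 4.05 FPKM in control and 4.34, 5.39 and 4.48 FPKM in metformin libraries (log2 difference 0.27, SE 0.087, limma adjusted p = 0.376). Bola3, a late-acting assembly factor, was at 7.71, 9.50 and 8.82 FPKM in control and 10.76, 9.85 and 9.88 FPKM in metformin libraries (0.21, SE 0.072, limma adjusted p = 0.390). The chaperone Hspa9, the most abundant, differed by 0.023 (SE 0.017).

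The other transcripts known for an IRE included 0 genes with an unadjusted p under 0.05 among 3 tested. Cdc42bpa differed by 0.026 (SE 0.059) and Cdc14a by -0.063 (SE 0.066), and Alas2 and Epas1 were below 1 FPKM. For haem synthesis and handling, 15 of 17 were tested. At an unadjusted p under 0.05, 2 were higher and 0 lower, beside 6.03% and 4.81% of all tested genes. The haem transporter Slc48a1 was at 66.17, 66.68 and 66.99 FPKM in control and 69.57, 70.76 and 70.79 FPKM in metformin libraries (0.078, SE 0.021, limma adjusted p = 0.346). Blvra, which reduces biliverdin, had the lowest difference (-0.067, SE 0.066).

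NRF2 is a stress-activated transcription factor whose known targets include both ferritin genes. Of 15 other targets, all were tested, with a median log2 difference of 0.015, beside 0.0041 over all tested genes. At an unadjusted p under 0.05, 3 were higher (Osgin1, Tkt, Slc7a11) and 0 lower, beside 6.03% and 4.81% of all tested genes. No direction of the list was tested. Tkt, an enzyme of the pentose phosphate pathway, was at 108.77, 108.59 and 111.72 FPKM in control and 121.41, 113.99 and 113.73 FPKM in metformin libraries (0.084, SE 0.030, limma adjusted p = 0.404). Osgin1 had the highest difference (0.26, SE 0.097, limma adjusted p = 0.421) and the classical target Nqo1 the lowest (-0.045, SE 0.12), and the most abundant, Prdx1, stood at 207 FPKM in both groups (-0.0026, SE 0.022). In the list of lipid peroxidation control, the set of genes around iron-dependent cell death, 7 of 9 were tested. At an unadjusted p under 0.05, 1 was higher and 1 lower, beside 6.03% and 4.81% of all tested genes. The higher gene was Slc7a11, already counted among the NRF2 targets. Slc7a11, the cystine importer subunit, was at 1.37, 1.45 and 1.40 FPKM in control and 1.72, 1.95 and 1.64 FPKM in metformin libraries (0.20, SE 0.077, limma adjusted p = 0.423). Acsl4, which supplies the oxidizable fatty acids of membranes, was at 26.82, 25.64 and 26.65 FPKM in control and 23.06, 24.88 and 24.64 FPKM in metformin libraries (-0.12, SE 0.037, limma adjusted p = 0.367). Gpx4, which reduces lipid peroxides, was at 41.2 ± 1.93 and 41.0 ± 0.967 FPKM (SD, n = 3 each), and Aifm2 had the lowest difference (-0.15, SE 0.085).

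**Figure D4:**
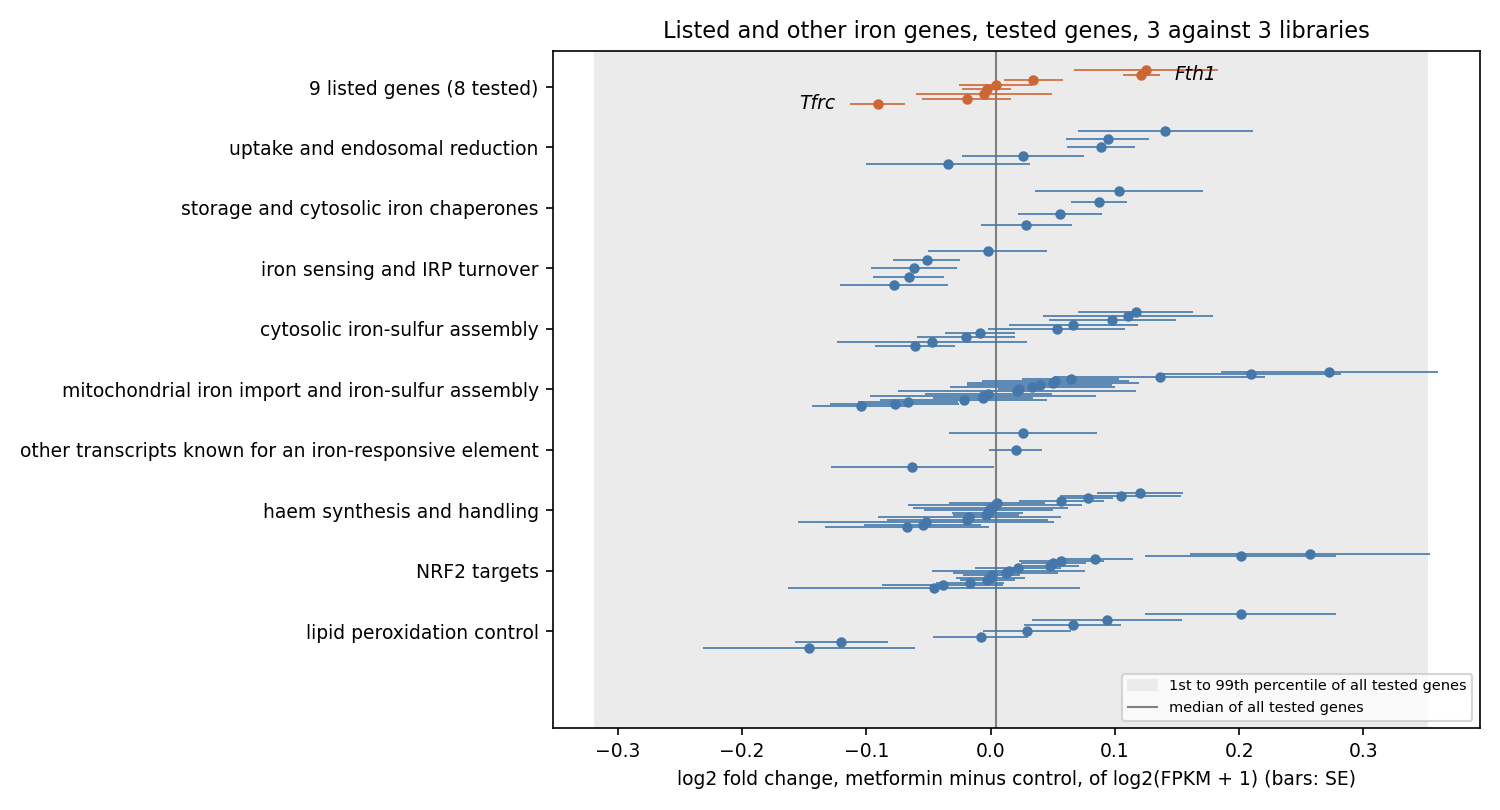
Metformin-minus-control log2 differences of log2(FPKM + 1) with SE bars, 3 against 3 libraries, for the 8 tested genes (orange) and the tested genes of each other iron list (blue), with the median of all tested genes as a line and their 1st to 99th percentile (-0.32 to 0.35) shaded. Every point lies inside the shaded range, and Fth1 (0.12) and Tfrc (-0.091) lie on opposite sides of 0.

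The transcripts whose pattern over the 6 libraries was most like that of Fth1 were Pycrl, Arhgap25 and Ddit3, with Pearson r of log2(FPKM + 1) of 0.989, 0.986 and 0.986. Ddit3, a stress-induced transcription factor, was one of the 3 genes called at an adjusted p under 0.05 by limma among the 10661 tested, with means of 7.33 FPKM in control and 12.9 FPKM in metformin libraries. Those most like Tfrc were Ccng1 (0.991), Add3 (0.987) and Canx (0.985). With 6 points that fall into the same 2 groups, such values are common: 193 tested genes exceeded 0.9 with Fth1 and 181 with Tfrc.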

How the data were processed

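The authors deposited FPKM, rounded to 2 decimals, for 55401 Ensembl genes at GRCm38 positions. The submitters' processing notes name HISAT2, DESeq2 and mm9, without roles. The labels name a KAPA stranded kit and the study's methods a VAHTS kit, and use of strand in counting is not given in the sources used here. No per-sample column was unused.

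The 10661 genes that averaged 1 FPKM or more were tested as log2(FPKM + 1), a scale that understates changes of low genes, with limma 3.58.1 in R 4.3.3 (lmFit, eBayes with trend, two-sided, Benjamini-Hochberg, threshold 0.05), without a replicate block. Scripts were tested on simulated data. Depth was estimated from the steps between FPKM values of single-exon genes up to 400 bp, and counting limits cover counting error only. IREs were searched in GENCODE M1 transcripts on NCBIM37; no coordinates were converted.

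The 9 genes, the iron lists and the markers were chosen with earlier results of these data known. Named genes are the 9, each list's lowest and highest log2 difference and most abundant tested gene, any called gene, ferritin copies, and the 3 transcripts most correlated with Fth1 and with Tfrc; a few of these are not reported here. Alternatives were another pseudocount (0.1), filter, scaling, variance model, the block, and each library left out. Figures were drawn with matplotlib 3.10.9.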

Additional observations from a re-analysis of the deposited data

How the results depend on the processing

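Of the 9 genes, 0 were called and of the other iron genes 0 were called under all 15 alternatives. Over all genes, 3 were called, 7 with no filter on low values, 2 with the replicate block and 3 to 4 with a library left out. The Fth1 log2 difference of 0.12 was 0.094 under quantile normalization, which also turned Ftl1 to -0.019, and 0.12 to 0.13 with a library left out. The Tfrc difference was -0.11 to -0.073 with a library left out. Aco1, Ireb2, Ncoa4 and Pcbp1 changed sign with a library left out. The ratio of Ftl1 to Fth1 was 1.49 to 1.52. Scaling moved the median of all genes by -0.0055 to -0.0023 on the log2 scale. Of the other iron genes, the 11 higher at an unadjusted p under 0.05 became 7 with a mean of at least 10 FPKM, where fewer genes are tested, 7 with each gene's own spread, and 4 to 12 with a library left out. The 2 lower became 4 with no filter, 4 under quantile normalization, 1 with the replicate block, and 1 to 5 with a library left out; the cause was not tested. Replicate numbers did not pair the libraries: deviations of same-numbered libraries correlated at -0.032 to 0.048, and those of other numbers at -0.050 to 0.030. The block left the count of 9 listed genes called at 0.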
